A study of Rattus norvegicus with 6 samples.

Results

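Amino acid transporters carry amino acids and a few related compounds, such as taurine and creatine, across the membranes of the cell and its lysosomes. The genes examined here were those whose symbol places them in the solute carrier families Slc1, Slc3, Slc6, Slc7, Slc36, Slc38 or Slc43, and 47 of them had at least 1 row on the array, out of 26299 genes and unnamed transcripts in all. The Slc6 family also holds carriers of noradrenaline, serotonin and GABA, which came in through the family name. RNA was taken from the skeletal muscle (soleus and gastrocnemius together) of 3 lower birth weight (LBW) and 3 average birth weight (ABW) pups, with 1 single-colour NimbleGen array per pup. All 6 pups were male Wistar rats aged 1 day, no treatment was named for pups or mothers, and the groups were formed by weight at birth. LBW pups lay between percentiles 5 and 25, whereas the sample labels place the controls between 25 and 75 and the grouping protocol between 50 and 75. The litters of the pups were not given, so that pups may share a mother and the p-values measure the spread between these pups.

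Muscle takes up amino acids through several kinds of carrier. Sodium-coupled carriers of the Slc38 family concentrate glutamine, alanine and other small neutral amino acids in the cell. Exchangers built from an Slc7 light chain and the Slc3a2 heavy chain trade these for leucine and other large or cationic amino acids. Carriers on the lysosome return amino acids from protein breakdown, and *Slc38a9* there reports arginine to the growth kinase complex mTORC1. When amino acids are short, the transcription factor Atf4 raises several of these carriers through a short DNA element.

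Promoter windows from RefSeq (build GRCr8), which run from 250 bases before to 50 bases after an annotated start, were at hand for 35 of the 47 genes. For 7 of these the start lay more than 1000 bases inside the gene, *Slc38a9* and *Slc7a7* among them, and 28 windows were kept. The element TGATGNAA, a core of the Atf4 binding site, was searched on both strands and was found in 2 of the 28 windows, those of *Slc38a1* and *Slc1a4*, and in 3.88% of 24550 windows of all genes. A match is a description of the letters and not of binding, and elements outside the windows were not searched. The 30 bases around each match are shown to place these letters, with the match in capitals. The first lies on the minus strand of chr7:129681525-129681554, beginning 142 bases before the start. The second lies on the minus strand of chr14:98761779-98761808, beginning 235 bases before the start and reading in reverse. The start used for *Slc38a1* is 326 bases inside the annotated gene, so that its match falls within the gene. For *Slc1a4* the start is 110 bases inside, and the match falls before the gene.
Slc38a1: gggggaaactcTGATGCAAccaaccagtcc
Slc1a4: cgcctccagcgTTGCATCAtccagccagca

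The windows of the genes also differed in their number of CpG dinucleotides, the sites at which vertebrate DNA is methylated. The window of *Slc38a1* (chr7:129681352-129681651, minus strand) holds 24 CpG, and that of *Slc7a12* (chr2:88868054-88868353, minus strand) holds 0. Both are given with each CpG in capitals. These genes stand for an expressed member whose values did not overlap between the groups and for the silent member with the largest difference.
Slc38a1: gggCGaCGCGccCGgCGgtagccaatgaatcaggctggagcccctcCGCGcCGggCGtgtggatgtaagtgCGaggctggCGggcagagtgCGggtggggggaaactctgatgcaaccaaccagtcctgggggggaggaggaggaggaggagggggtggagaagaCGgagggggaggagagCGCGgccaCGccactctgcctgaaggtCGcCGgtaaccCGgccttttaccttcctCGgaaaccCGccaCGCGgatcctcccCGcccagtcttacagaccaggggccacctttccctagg
Slc7a12: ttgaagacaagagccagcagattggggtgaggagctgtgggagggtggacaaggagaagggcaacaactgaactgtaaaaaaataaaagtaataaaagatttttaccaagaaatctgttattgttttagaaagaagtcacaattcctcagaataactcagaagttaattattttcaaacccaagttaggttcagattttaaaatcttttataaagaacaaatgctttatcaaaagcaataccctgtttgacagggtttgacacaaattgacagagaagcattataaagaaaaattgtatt

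The array gives a log2 signal per transcript, and 23 of the 47 genes had a mean above 8.7 over the 6 arrays, near the median of each array (8.695 to 8.757). These 23 are called expressed here and the other 24 silent, although the deposited values carry no detection call. The level falls in a gap between *Slc36a2* at 8.45 and *Slc38a3* at 8.79, with *Slc6a4* at 8.81 next above and *Slc6a20a* at 7.29 next below. Because each gene is read by its own probes, the brightness of different genes does not rank their abundance. Expressed genes were found in 7 of the 8 Slc38 genes, in 5 of 10 of Slc7, in 6 of 18 of Slc6, in 3 of 6 of Slc1, and in 1 each of Slc3 (2 genes) and Slc36 (3 genes). The family names matched 69 symbols in the RefSeq table, 66 of them protein-coding and 3 pseudogenes. Of the 69, 22 had no matched row, 19 of which are protein-coding. The exchanger *Slc7a11*, the cationic carrier *Slc7a1* and all of Slc43 were therefore not analysed here.

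Of the 15 kept windows of expressed genes, 14 (93.3%) held at least 10 CpG, with a median of 23, and of the 13 of silent genes 6 (46.2%) did, with a median of 8. Across the array, 87.3% of 3495 other genes above a signal of 8.7 and 29.2% of 3003 at or below it had such a window. *Slc38a4*, with 6 CpG and a mean signal of 12.41, was the expressed gene below 10. The silent genes *Slc1a2* (39), *Slc1a6* (35), *Slc6a11* (30) and *Slc6a7* (30), which are known from the nervous system, had many CpG at a low signal.

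**Figure D1:**
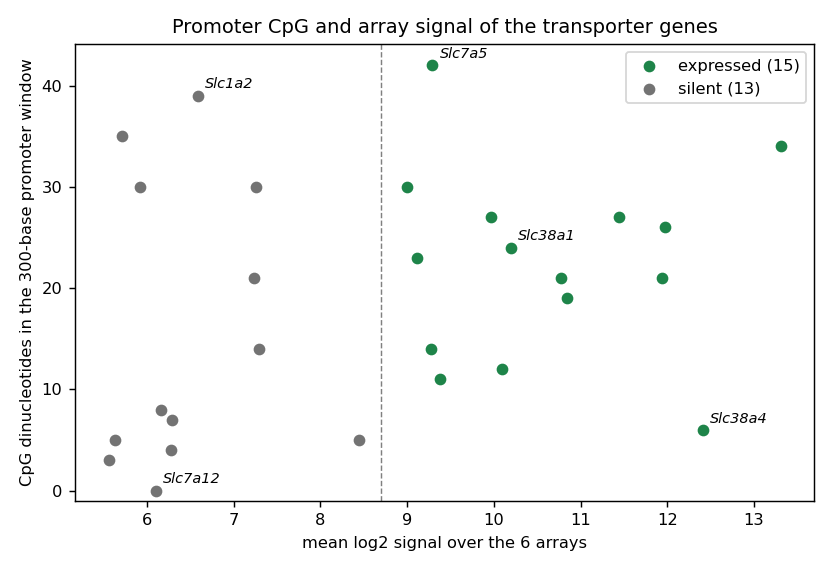
CpG dinucleotides in the promoter window (vertical axis, count per 300 bases) against the mean log2 signal over the 6 arrays (horizontal axis), with 1 point for each of 28 genes, green for expressed and grey for silent and a dashed line at 8.7. All but *Slc38a4* of the 15 expressed genes lie at 10 CpG or more, while silent genes run from 0 to 39.

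Libraries differed in tissue markers before any transporter was considered. All 8 of 12 skeletal muscle markers with a row were above 8.7, and their mean signal lay between 14.33 and 14.48 in the 6 pups. The 10 bone markers with a row (of 12) stood at 7.97 in LBW 2, at 10.48 and 11.38 in the other LBW pups and at 7.35 to 7.62 in ABW pups, where 1 of the 10 lay above 8.7. Neutrophil markers (5 of 10 with a row) were on average at 8.15 to 9.42 in LBW and 7.06 to 7.32 in ABW pups. Of these 4 were higher in LBW pups, while *Prtn3* was low in both groups, with means of 5.86 in LBW and 5.93 in ABW pups. Adipocyte markers (9 of 10) were at 9.85 to 10.64 in LBW and 10.45 to 11.52 in ABW pups. In whole muscle, fewer cells of a type and less RNA per cell cannot be told apart, and the part of these tissues in the results below was not tested.

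To ask whether birth weight goes with a different supply of amino acid carriers, the 2 groups were compared with limma across all 26299 features. *Slc38a9* was lower in LBW pups and was the only 1 of the 47 genes past the threshold of the study, which asks for 1.5-fold or more together with p under 0.05, taken here before adjustment (2.13%). Of all features 4.27% passed, with 2.38% higher and 1.89% lower in LBW pups. After Benjamini-Hochberg adjustment over all features 0 of the 47 passed by limma, with a smallest adjusted p of 0.264, and 0 by the methods' t-test. At an unadjusted p under 0.05 there were 5 by limma (10.6%, compared to 12.4% of all features) and 4 by the methods' t-test. The 3 LBW values lay entirely on one side of the 3 ABW values in 9 genes (19.1%, against 17.4% of all features), of which 3 were higher and 6 lower (7.27% and 10.1% of all features). The median log2 fold change of the 47 genes was -0.04, beside -0.023 for all features, and 19 were higher and 28 lower in LBW pups, where 44.4% of all features were higher. The 95% interval lay within 1.5-fold either way for 27 of the 47 genes (57.4%, compared to 66.6% of all features). The shares of transporters called thus stood near those of all features. The number of arrays limits the precision, since 3 pups against 3 cannot give an exact permutation p under 0.1.

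Among the 23 expressed genes, the signal moved by a median of 0.67 between the highest and the lowest pup, from 0.26 in *Slc38a4* to 1.30 in *Slc6a4*. Of these genes 8 were higher and 15 lower in LBW pups (34.8% higher, compared to 46.1% of all features above 8.7), 1 passed the threshold (4.35%, compared to 4.17%), 4 had an unadjusted p under 0.05 (17.4%, compared to 14.4%) and 6 did not overlap between the groups (26.1%, compared to 19.4%). LBW 1 held the lowest value of 8 expressed genes and LBW 3 of 7, whereas LBW 2 held that of 1. The 95% interval of the difference lay within 1.5-fold either way for 10 of the 23 (43.5%), against 68.2% of all features above 8.7. For the other 13, a change of 1.5-fold could not be set aside at this number of pups.

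**Figure D2:**
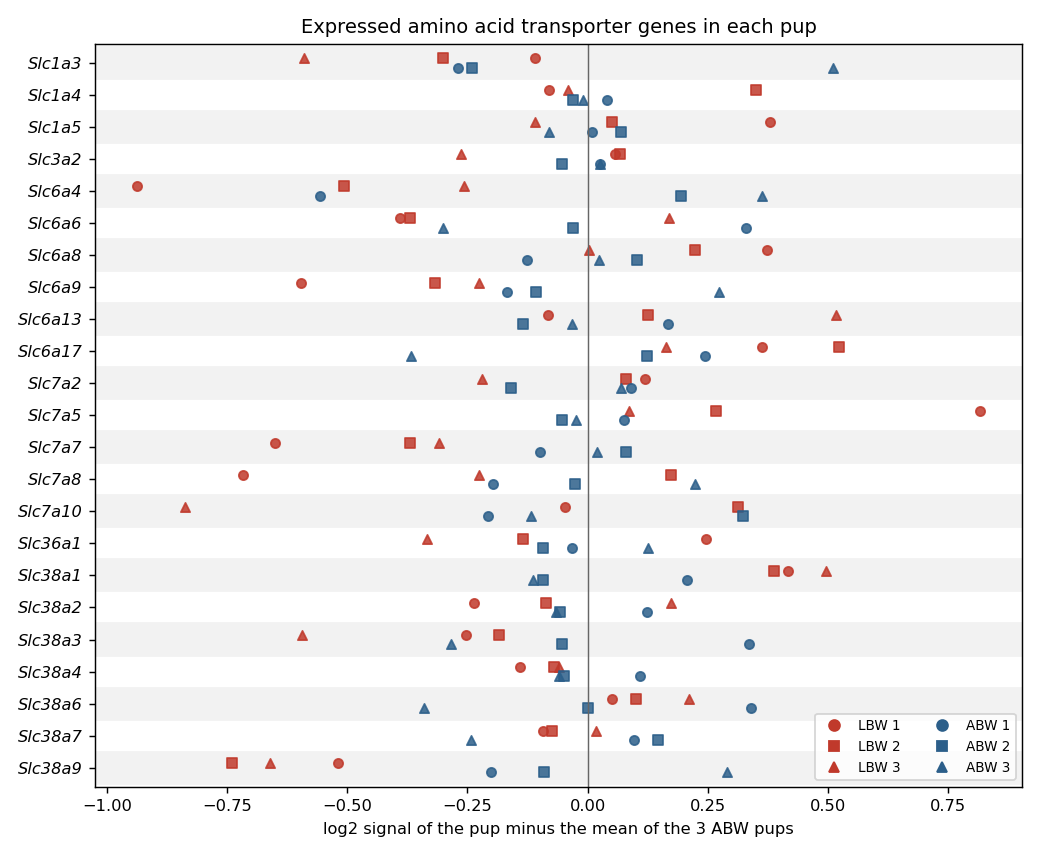
Log2 signal of each pup minus the mean of the 3 ABW pups (horizontal axis) for the 23 expressed genes (rows), with LBW pups in red and ABW pups in blue and the marker shape giving the pup number. All LBW points of *Slc38a9*, *Slc7a7* and *Slc6a9* lie left of the ABW points and those of *Slc38a1* lie right, while most genes mix.

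The gene past the threshold was a carrier of the lysosome. *Slc38a9* (NM_001035251), the arginine-sensing carrier of the lysosomal membrane, was at 10.11, 9.89 and 9.97 in LBW 1, 2 and 3 and at 10.43, 10.54 and 10.92 in ABW 1, 2 and 3 on the log2 scale. The groups were thus fully apart, and the pups nearest each other, LBW 1 and ABW 1, were 0.32 apart. The group means were 9.99 ± 0.11 (SD, n = 3) and 10.63 ± 0.26 (SD, n = 3), a log2 fold change of -0.64 (SE 0.15, 95% interval -1.0 to -0.29) or 0.641 times the ABW level. Its unadjusted p was 0.00409 and its adjusted p 0.264 by limma, and the exact permutation test gave its smallest value of 0.1 (2-sided). The difference was -0.74 in LBW 2 alone. On average the bone markers were 0.51 above the ABW mean in that pup, compared to 3.02 and 3.91 in LBW 1 and LBW 3. Single bone markers of LBW 2 ran from -0.54 in *Dlx5* to 2.45 in *Spp1* relative to the ABW mean, with *Ibsp* at 2.03. In LBW 2 the neutrophil markers stood at 0.98 and the adipocyte markers at -0.44 relative to the ABW mean. The part of these tissues in the *Slc38a9* difference was not tested. With each pup left out in turn it ran from -0.74 to -0.50, and it fell short of 1.5-fold without ABW 3, the pup with the highest value.

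Smaller differences were seen in *Slc38a7* and *Slc36a1*, further lysosomal carriers of these families. *Slc38a7*, which exports glutamine and asparagine from lysosomes, was at 9.31, 9.33 and 9.42 in LBW pups and at 9.50, 9.55 and 9.16 in ABW pups, with a log2 fold change of -0.05 (95% interval -0.35 to 0.25). *Slc36a1*, a proton-coupled carrier of small amino acids, was at 9.56, 9.18 and 8.98 in LBW and at 9.28, 9.22 and 9.44 in ABW pups, a log2 fold change of -0.07 (95% interval -0.46 to 0.31). In both genes the groups overlapped and the interval lay within 1.5-fold. Whether their differences differ from that of *Slc38a9* was not tested.

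Of the sodium-coupled carriers of small neutral amino acids at the cell surface, *Slc38a1* was higher in LBW pups and the brighter *Slc38a2* and *Slc38a4* were nearly level. These 3 genes are neighbours on chromosome 7. *Slc38a1* (NM_138832), which carries glutamine, was at 10.40, 10.37 and 10.48 in LBW 1, 2 and 3 and at 10.19, 9.89 and 9.87 in ABW 1, 2 and 3. The LBW pups were close together (10.42 ± 0.05, SD, n = 3), lay above all ABW pups (9.98 ± 0.18, SD, n = 3), and were 0.19 from the nearest of them. The log2 fold change was 0.43 (SE 0.11, 95% interval 0.16 to 0.70), 1.35 times the ABW level, which is under the 1.5-fold criterion (unadjusted p = 0.00725, adjusted p = 0.281 by limma). Without any 1 pup it stayed between 0.38 and 0.54.

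*Slc38a2* (NM_181090), the carrier of this group that is known to respond to amino acid shortage, was at 13.10, 13.25 and 13.51 in LBW and at 13.46, 13.28 and 13.27 in ABW pups. The groups overlapped, and the log2 fold change of -0.05 (SE 0.13, 95% interval -0.36 to 0.26) changed sign when LBW 1 or ABW 1 was left out. *Slc38a4* (NM_130748) was at 12.32, 12.39 and 12.40 in LBW and at 12.57, 12.41 and 12.40 in ABW pups. Its values did not overlap, but by 0.01 only, and they overlapped once the arrays were brought to a common median or distribution. Its log2 fold change of -0.10 (95% interval -0.31 to 0.12) had an SE of 0.09. The glutamine carrier *Slc38a3* was at 8.71, 8.78 and 8.37 in LBW and at 9.30, 8.91 and 8.68 in ABW pups, an overlap with a log2 fold change of -0.34 (SE 0.19) that ran from -0.49 to -0.17 with each pup left out.

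**Figure D3:**
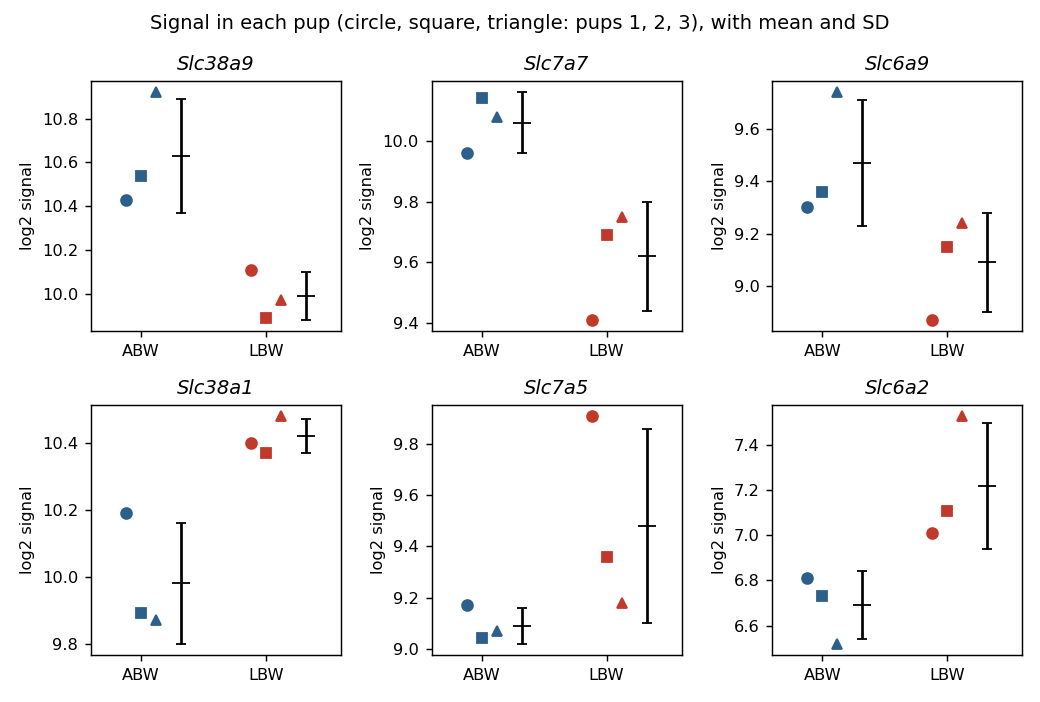
Log2 signal (vertical axis, not from 0 and scaled for each gene) in the ABW (blue) and LBW (red) pups for *Slc38a9*, *Slc7a7*, *Slc6a9*, *Slc38a1*, *Slc7a5* and *Slc6a2*, with the mean and SD (n = 3) beside each group. The groups do not overlap in any of the 6 genes as deposited, with a gap of 0.32 in *Slc38a9* and of 0.01 in *Slc7a5*, which overlaps after quantile normalization or centring.

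The heavy chain *Slc3a2* (NM_019283), which takes its light chains to the cell surface, did not differ beyond the spread. It was at 12.05, 12.06 and 11.73 in LBW and at 12.02, 11.94 and 12.02 in ABW pups, a log2 fold change of -0.05 (SE 0.12, 95% interval -0.33 to 0.23). Its light chains gave differences of either sign. *Slc7a5* (NM_017353), the light chain for leucine and other large neutral amino acids, was at 9.91, 9.36 and 9.18 in LBW 1, 2 and 3 and at 9.17, 9.04 and 9.07 in ABW pups. LBW 1 stood apart above the rest, and LBW 3 was 0.01 above ABW 1, a gap that closed into an overlap after quantile normalization or centring of the arrays. On average LBW pups were 0.39 higher in log2 signal (SE 0.19, 95% interval -0.07 to 0.85), with an adjusted p of 0.467 by limma, and this difference lay between 0.18 and 0.54 with each pup left out.

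*Slc7a7* (NM_031341), the light chain through which cationic amino acids leave the cell, was at 9.41, 9.69 and 9.75 in LBW 1, 2 and 3 and at 9.96, 10.14 and 10.08 in ABW pups. All LBW pups were lower, by at least 0.20, with a log2 fold change of -0.44 (SE 0.12, 95% interval -0.73 to -0.15), or 0.735 times the ABW level (unadjusted p = 0.00884, adjusted p = 0.290 by limma). This gene is also expressed in macrophages. Relative to the ABW mean, the 7 macrophage markers were at -0.35, -0.22 and -0.54 in the LBW pups and at -0.41, 0.13 and 0.28 in ABW 1, 2 and 3. The part of macrophages in the *Slc7a7* difference was not tested.

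*Slc7a8*, a second light chain for large neutral amino acids, was at 10.26, 11.15 and 10.75 in LBW and at 10.78, 10.95 and 11.20 in ABW pups. LBW 1 was the lowest pup and LBW 2 close to the highest, and the log2 fold change of -0.25 (SE 0.24) was -0.02 without LBW 1 and -0.47 without LBW 2. *Slc7a10*, a carrier of small neutral amino acids that also marks white adipocytes, was at 10.02, 10.38 and 9.23 in LBW and at 9.86, 10.39 and 9.95 in ABW pups, a log2 fold change of -0.19 (SE 0.31). LBW 3, the lowest pup for *Slc7a10*, was also the lowest for the adipocyte markers, at 1.23 below the ABW mean. The part of adipocytes in *Slc7a10* was not tested. The cationic carrier *Slc7a2*, which needs no heavy chain, was at 11.06, 11.02 and 10.72 in LBW and at 11.03, 10.78 and 11.01 in ABW pups, a log2 fold change of -0.01 (95% interval -0.32 to 0.30).

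The Slc1 carriers *Slc1a4* and *Slc1a5* exchange small neutral amino acids such as serine and alanine and did not separate the groups. *Slc1a5* was at 11.53, 11.20 and 11.04 in LBW and at 11.16, 11.22 and 11.07 in ABW pups, and its log2 fold change of 0.11 (95% interval -0.23 to 0.44) rested on LBW 1, without which it was -0.03. *Slc1a4* was at 10.66, 11.09 and 10.70 in LBW and at 10.78, 10.71 and 10.73 in ABW pups, and its log2 fold change of 0.08 (95% interval -0.24 to 0.39) rested on LBW 2, without which it was -0.06. The glutamate carrier *Slc1a3*, known from glia, was at 10.15, 9.96 and 9.67 in LBW and at 9.99, 10.02 and 10.77 in ABW pups, where ABW 3 alone lay above the others. The glutamate carrier *Slc1a2*, the only gene with 2 rows, was silent in both (means 6.69 and 6.50), and the 2 rows moved the same way, with log2 fold changes of -0.20 and -0.45.

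Of the expressed Slc6 genes, *Slc6a9* was lower in LBW pups and the carriers of creatine and taurine overlapped between the groups. *Slc6a9* (NM_053818), which takes up glycine, was at 8.87, 9.15 and 9.24 in LBW and at 9.30, 9.36 and 9.74 in ABW pups. The groups did not overlap, and LBW 3 and ABW 1 were 0.06 apart. LBW pups had 0.769 times the ABW level, a log2 difference of -0.38 with SE 0.16 that ran from -0.46 to -0.24 with each pup left out. limma gave an adjusted p of 0.403 and an unadjusted p of 0.0489, and the methods' t-test left the gene above 0.05. *Slc6a8*, the creatine carrier, was at 12.21, 12.06 and 11.84 in LBW and at 11.71, 11.94 and 11.86 in ABW pups, a log2 fold change of 0.20 (SE 0.12, 95% interval -0.10 to 0.50) with LBW 3 below ABW 2. *Slc6a6*, the taurine carrier, was at 11.15, 11.17 and 11.71 in LBW and at 11.87, 11.51 and 11.24 in ABW pups, a log2 fold change of -0.20 (SE 0.22, 95% interval -0.72 to 0.32) that ran from -0.38 to -0.04 with each pup left out.

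The remaining expressed Slc6 genes overlapped between the groups. The serotonin carrier *Slc6a4* was at 8.16, 8.59 and 8.84 in LBW and at 8.54, 9.29 and 9.46 in ABW pups, with a log2 fold change of -0.57 (SE 0.28). ABW 1 lay among the LBW pups, and without it the difference was -0.85 and past the threshold, whereas it was -0.38 without LBW 1 and -0.39 without ABW 3. *Slc6a13*, a carrier of GABA and taurine, and *Slc6a17*, a carrier of neutral amino acids in synaptic vesicles, had log2 fold changes of 0.19 (SE 0.17) and 0.35 (SE 0.18). *Slc38a6* completed the expressed genes, with a log2 fold change of 0.12 (SE 0.17).

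**Figure D4:**
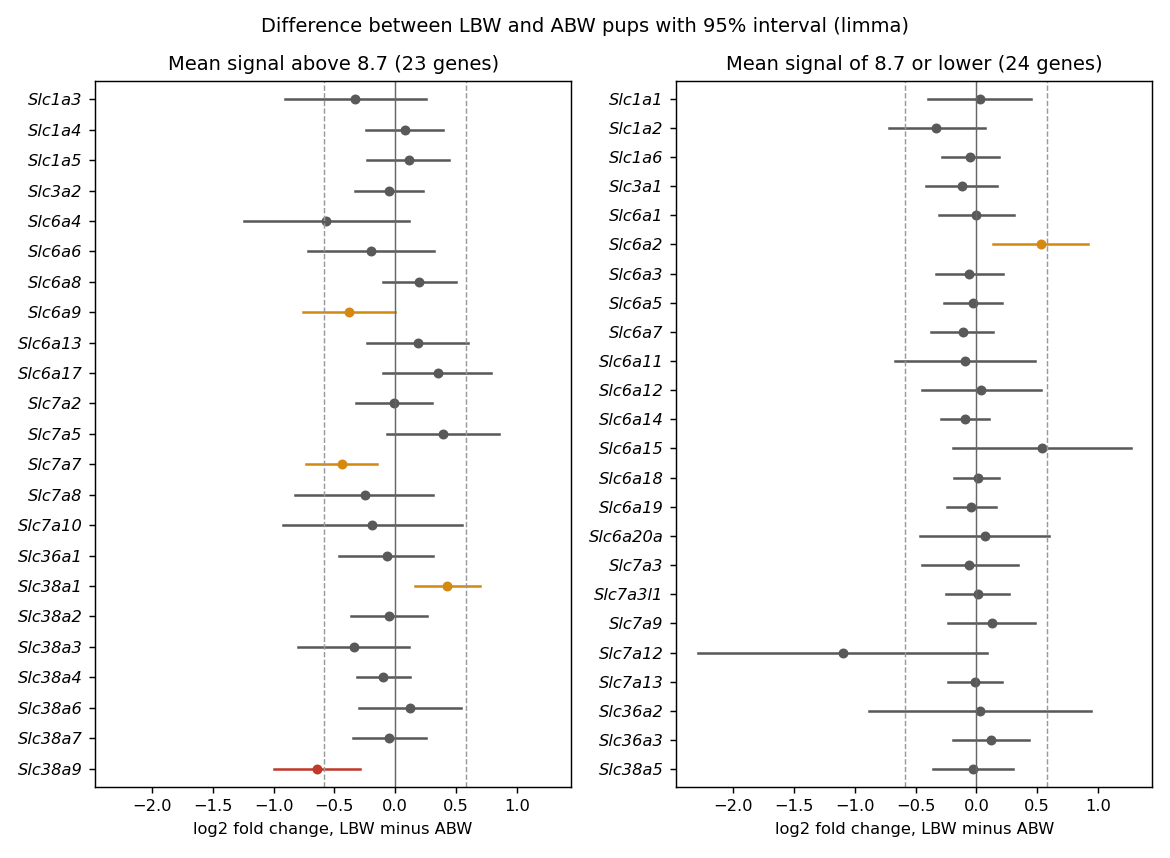
Log2 fold change of LBW over ABW pups (point) with its 95% interval by limma (line) for the 23 expressed genes on the left and the 24 silent genes on the right, and dashed lines at 1.5-fold either way. *Slc38a9* (red) is the gene past the threshold, orange marks the other 4 genes with an unadjusted p under 0.05, and most intervals include 0.

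The silent genes were for the most part flat across the 6 pups. Their highest and lowest pups were apart by a median of 0.44, the 95% interval lay within 1.5-fold for 17 of the 24 (70.8%, compared to 65.1% of all features at or below 8.7), and 0 of them passed the threshold (4.38% of such features did), with 1 at an unadjusted p under 0.05 (4.17%, compared to 10.3%) and 3 that did not overlap (12.5%, compared to 15.4%). The carriers known from kidney or gut ranged widely in this respect, with spreads of 0.10 in *Slc6a18*, 0.16 in *Slc6a19*, 0.40 in *Slc3a1*, 0.49 in *Slc7a9* and 0.77 in *Slc6a20a*. At such signals a real difference may be hidden, because how far they lie above background is not known. *Slc36a2*, the silent gene nearest the level of 8.7, lay above it in LBW 1 (9.22) and ABW 2 (8.82), with a spread of 1.32.

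In 3 silent genes single differences were larger. The noradrenaline carrier *Slc6a2* (NM_031343) was at 7.01, 7.11 and 7.53 in LBW and at 6.81, 6.73 and 6.52 in ABW pups. LBW pups were all higher, with a log2 fold change of 0.53 (SE 0.16, unadjusted p = 0.0152, adjusted p = 0.311 by limma), or 1.44 times the ABW level, which did not reach 1.5-fold. It was past the threshold without LBW 1 (0.63) or without ABW 1 (0.59), and smaller without LBW 3 (0.37) or without ABW 3 (0.44, unadjusted p = 0.0535 by limma). *Slc7a12*, a relative of the small neutral carriers, was at 5.59, 5.50 and 5.55 in LBW pups and at 7.79, 5.66 and 6.50 in ABW 1, 2 and 3. The LBW pups were close together (SD 0.05, n = 3), and the log2 fold change of -1.10 (SE 0.49, 95% interval -2.29 to 0.09) depended on single ABW pups. It was -0.53 without ABW 1, the highest pup, and -1.60 and past the threshold without ABW 2, the lowest ABW pup, and it also passed with an intensity trend or a replicate block. *Slc6a15*, a neutral amino acid carrier of neurons, was at 6.88, 5.79 and 6.45 in LBW and at 6.22, 5.56 and 5.73 in ABW pups, and its log2 fold change of 0.54 (SE 0.30) was 0.83 without LBW 2 and -0.05 in LBW 2 alone.

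Genes that sense or use amino acids were set beside the carriers. Of the 17 genes of amino acid sensing by mTORC1 with a row (of 36 listed), 0 passed the threshold in either direction, where 4.27% of all features did. With a list of this size that is not a result about the list. In LBW pups 6 were higher and 11 lower, where 44.4% of all features were higher. The median log2 fold change was -0.02, and 2 had an unadjusted p under 0.05 by limma. As 12.4% of all features had such a p, this count is no more than that of the array at large. The 2 genes, named after their values were seen, were *Nprl2* (-0.40, SE 0.11), a subunit of a complex that restrains mTORC1 when amino acids are short, and *Rragc* (-0.42, SE 0.17), a GTPase to which *Slc38a9* couples. The brightest genes of this list, *Sec13* (-0.11), *Eif4ebp1* (0.01), *Rheb* (0.02) and *Rps6kb1* (-0.03), had 95% intervals within 1.5-fold.

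Of 24 genes of the Atf4 amino acid response with a row (of 35), 2 rose past the threshold and 0 fell, where 2.38% of all features rose and 1.89% fell. With a list of this size such a count is not a result about the list. The 2 genes were the transcription factor *Atf3*, at 9.04, 9.66 and 9.41 in LBW and 8.81, 8.80 and 8.67 in ABW pups, and the secreted glycoprotein *Stc2*, at 8.74, 8.84 and 8.61 in LBW and 8.2, 8.33 and 7.83 in ABW pups, each with a log2 fold change of 0.61 and adjusted p-values of 0.287 and 0.269 by limma. The mean of *Stc2*, 8.43, is below the level of 8.7, and how far it lies above background is not known. Over the list 10 genes were higher and 14 lower (44.4% of all features were higher), with a median of -0.05. *Atf4* itself was at a log2 fold change of 0.08 (95% interval -0.14 to 0.30), and the other brightest genes of the list, the tRNA synthetases *Nars1* (-0.03) and *Sars1* (-0.14) and the initiation factor subunit *Eif2s1* (0.04), also had intervals within 1.5-fold. *Asns*, which makes asparagine and is a textbook target of Atf4, was at 11.26, 12.27 and 10.95 in LBW and at 12.31, 12.01 and 11.70 in ABW pups, an overlap with a log2 fold change of -0.52 (SE 0.35). *Ddit3*, another target, was lower in every LBW pup (-0.48, SE 0.12, adjusted p = 0.276 by limma) without reaching 1.5-fold, and was also named after its values were seen.

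None of the other 4 lists had a gene past the threshold, which 4.27% of all features passed. With lists of this size such counts are not a result about the lists. For the breakdown of branched-chain amino acids, 2 of 16 genes with a row (of 23) were higher and 14 lower in LBW pups, where 44.4% of all features were higher. Their median log2 fold change was -0.09, and 0 had an unadjusted p under 0.05 by limma, where 12.4% of all features did. Whether these genes differ from all features was not tested. The brightest of them were *Hsd17b10* (-0.03), *Dld* (0.12), *Bckdk* (-0.09) and *Bcat2* (0.21). Of 14 glutamine, glutamate and alanine enzymes (of 16) 8 were higher and 6 lower, and the glutamine synthetase *Glul* was at 14.01, 14.26 and 14.03 in LBW and 14.00, 13.63 and 13.70 in ABW pups, a log2 fold change of 0.32 (SE 0.13, unadjusted p = 0.0493, adjusted p = 0.403 by limma). The next brightest of these enzymes were *Glud1* (0.01), *Got2* (0.06) and *Asns*. Of 11 genes for the synthesis of glutathione, taurine and creatine (of 14) 6 were higher and 5 lower, and of 15 carriers of other families (of 23) 7 were higher and 8 lower, with medians of 0.06 and -0.02. The brightest of the former were *Cdo1* (-0.11), *Gatm* (0.06), *Gamt* (-0.25) and *Ckb* (0.40), and of the latter the lysosomal carrier *Slc17a5* (-0.21), the mitochondrial ornithine carrier *Slc25a15* (-0.16), *Slc16a10* (-0.12) and *Slc15a4* (0.31).

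**Figure D5:**
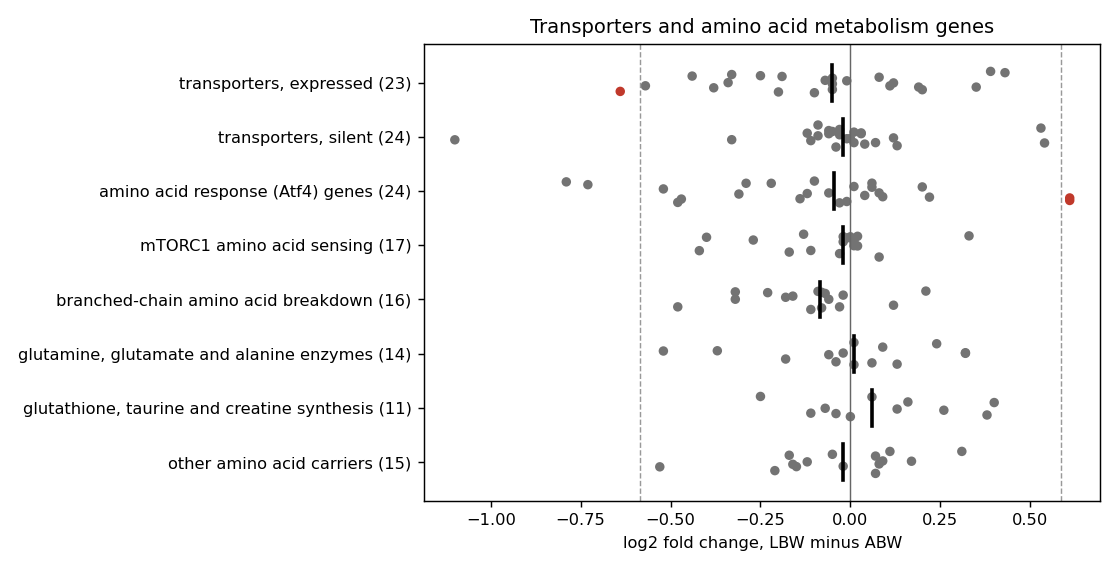
Log2 fold change of LBW over ABW pups for each gene (points, red where past the threshold) of the expressed and silent transporters and of 6 related lists, with the number of genes in parentheses, the median of each list as a black bar and dashed lines at 1.5-fold. All medians lie between -0.09 and 0.06, and the red points are *Slc38a9*, *Atf3* and *Stc2*.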

How the data were processed

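Single-colour (Cy3) NimbleGen rat arrays with 5 probes per transcript carried the muscle RNA of 3 pups per group. The authors deposited log2 values for 26419 rows, which they normalized by in-house scripts in R (Bioconductor packages). RMA is named in the submitters' processing notes. The probes were designed on RGSC3.4. Depth does not apply to arrays.

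Accessions were matched, without versions, to a RefSeq table of GRCr8, which named 9747 rows (36.9%), and rows of a symbol were averaged to 26299 features. LBW minus ABW was fitted with limma 3.58.1 in R 4.3.3 (lmFit, eBayes, 2-sided, Benjamini-Hochberg over all features) and checked on simulated data. The fold change of 1.5 and p under 0.05 are those of the study, whose methods name no test for the arrays and, for the study's data in general, Student's test or an analysis of variance. The former was run here as the methods' t-test. Single genes were also tested by exact permutation. Same-numbered pups were not paired in the main fit. The correlations of their deviations were 0.0874, 0.104 and 0.0552, against -0.096 to 0.0211 between pups of unlike number.

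The transporters and gene lists were chosen with earlier results of these data known. Named are genes past the threshold, expressed genes at p under 0.05, the 8 brightest, 16 genes known in muscle (12 with a row), at most 4 per family for large differences, and from each related list those past the threshold and the 4 brightest. *Slc3a1*, *Slc7a9*, *Slc6a13*, *Slc6a18*, *Slc6a19*, *Slc6a20a*, *Slc36a2*, *Slc38a6*, *Slc38a7* and the genes named for their CpG were chosen after their values were seen. The limit of 1000 bases for promoter windows was set after the data were seen. Alternatives were a replicate block, each pup left out, LBW 2 alone, quantile normalization, median centring, leaving out the dimmest 25%, an intensity trend, the methods' t-test, rows not averaged, a fold change of 2 and levels of 9.2 and 8.2. They were followed for 23 genes, those with a difference of 0.3 or more having been added after the values were seen.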

Additional observations from a re-analysis of the deposited data

How the results depend on the processing

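Over all features, 1124 passed the threshold, with 798 to 1546 when a pup was left out, 584 by the methods' t-test and 335 at a fold change of at least 2. After adjustment 0 passed, except 125 without LBW 2, so that the range was 0 to 125. Of the transporters, 1 passed, and 0 to 3 with a pup left out (0 without ABW 3, 3 without ABW 1), 2 with an intensity trend (*Slc38a9* and *Slc7a12*) and 0 at a fold change of at least 2. *Slc38a9* passed in 13 of the 14 alternatives that kept 1.5-fold, not without ABW 3, and did not reach a fold change of 2. Its adjusted p ran from 0.212 to 0.593. The count of genes that did not overlap, 9, was 6 after quantile normalization or centring, 11 to 15 with a pup left out and 26 for LBW 2 against the 3 ABW pups, where 1 value cannot overlap as easily as 3. Expressed genes higher in LBW numbered 7 to 12 with a pup left out, 6 of 19 at a level of 9.2 and 9 of 24 at 8.2.

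Each of the 6 pups correlated best with its own number. The labels do not say whether same-numbered pups share a litter or a batch, and this was not tested. With the replicate block, 1230 features and 2 transporters passed, *Slc7a12* (-1.10) having joined *Slc38a9*.

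Of 23 genes followed, 8 changed sign somewhere, none of which passed the threshold with all pups, although *Slc6a15* did without LBW 2 (0.83). Leaving out a pup took *Slc1a4* from -0.06 to 0.16, *Slc1a5* from -0.03 to 0.22, *Slc36a1* from -0.23 to 0.06, *Slc38a2* from -0.16 to 0.04, *Slc3a2* from -0.11 to 0.06 and *Slc7a2* from -0.09 to 0.10. In LBW 2 alone *Slc3a2* was at 0.06, *Slc7a2* at 0.08, *Slc7a8* at 0.18 and *Slc6a15* at -0.05, and *Slc7a2* was at 0.00 after quantile normalization. The cause was not tested.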
